A study of Mus musculus with 6 samples.

Results

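The genes for 10 ligand-activated nuclear receptors were followed in immortalized mouse podocytes, out of 57132 genes listed. They were listed by name, with earlier results of these data known. The list held the fatty acid receptors Ppara, Ppard and Pparg, the retinoid X receptors Rxra and Rxrb, and the retinoic acid receptors Rara, Rarb and Rarg. It also held the vitamin D receptor Vdr and the glucocorticoid receptor Nr3c1. RNA-seq compared the line IMWT (WT-Col4a3+/+), 3 samples, with the line IMAS (AS, Col4a3-/-), 3 samples, which lacks a collagen IV chain and models Alport syndrome. Both lines are labelled as kidney podocytes of 8-week-old male mice. They were grown in DMEM/F12 with 10% fetal bovine serum, 2% penicillin and streptomycin and 20 U/mL interferon gamma at 33 °C under 5% CO2, differentiated for 14 days at 37 °C, and given no treatment. The study's methods describe the lines as derived from Col4a3 knockout mice bred with mice that carry a temperature-sensitive T antigen under an interferon-responsive promoter, and name a different medium and a shorter differentiation. Each genotype was 1 cell line, so genotype and line cannot be told apart. The labels call the samples sets and do not say whether sets were separate cultures, so p-values measure only the spread between these samples.

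Nuclear receptors are transcription factors that a small lipophilic ligand switches between repression and activation of target genes. The PPAR, retinoic acid and vitamin D receptors bind DNA together with a retinoid X receptor, while the glucocorticoid receptor is held in the cytoplasm by chaperones until hormone binds and then acts mostly on its own sites. Retinoids, glucocorticoids, vitamin D analogs and PPAR agonists have all been studied for their effects on podocyte differentiation and injury. No ligand was added or measured here.

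The samples held between 45417221 and 54290968 counts each. Col4a3 was at 1087 ± 170 CPM (reads of a gene relative to the sample's total after TMM scaling; mean ± SD, n = 3) in WT and 68.8 ± 12.2 CPM in AS, and all AS samples were lower. Podocyte markers were only in part present: Tcf21 had no count in any sample and Nphs1 summed to 67 counts in WT and 6 in AS, whereas Synpo, an actin-binding podocyte protein, was at 803 CPM in WT and 526 CPM in AS. Of 18 podocyte markers, 15 were tested and 11 were called, 4 higher and 7 lower in AS. Called means an adjusted p under 0.05 in the edgeR test described below, which 40.1% of all genes tested reached. The summed level of the podocyte markers was 2659 to 3077 CPM in WT and 2258 to 2413 CPM in AS. Summed markers of parietal epithelial cells (1226 to 1396 CPM in WT and 963 to 1001 CPM in AS, 4 of 6 tested called) were lower in AS. So were those of endothelial cells (47.2 to 55.5 and 39.7 to 44.5 CPM, 3 of 3 tested called, 7 listed) and adipocytes (53.4 to 58.5 and 42.0 to 46.2 CPM, mostly Adipor2, 1 of 2 tested called, 8 listed). Those of leukocytes were lower as well (11.2 to 15.0 and 5.16 to 7.02 CPM, 1 of 3 tested called, 7 listed). Markers of proximal tubule (281 to 424 CPM, 1 of 4 tested called, 8 listed) and distal nephron (0.394 to 0.684 CPM, none of 1 tested called, 7 listed) overlapped. Those of mesangial cells and pericytes (5769 to 7915 CPM, 3 of 7 tested called, 8 listed) did too. WT sample 1 stood apart in immediate early genes (a list added after the data were seen), which summed to 2656 CPM there, to 1094 and 827 CPM in the other WT samples, and to between 941 and 1557 CPM in AS. The part of these differences in the results for the receptors was not tested.

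Of the 10 receptors, 5 were higher in AS than in WT podocytes and none was lower (edgeR's quasi-likelihood test, Benjamini-Hochberg adjusted p under 0.05 over 16263 genes). The background was high, since 40.1% of all genes tested were called, 20.4% higher and 19.6% lower in AS, and 5 of 10 is read against that share. The receptors called were Rarb, Rarg, Vdr, Nr3c1 and Rxra, in order of fold. Rarb, Rarg and Nr3c1 stayed called when any one sample was left out, whereas Vdr and Rxra did not. Each of these 5 had AS samples that all lay above the WT samples, as did 26.4% of all genes tested (52.3% had groups that did not overlap, in either direction). The PPAR genes, Rxrb and Rara were not called.

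**Figure D1:**
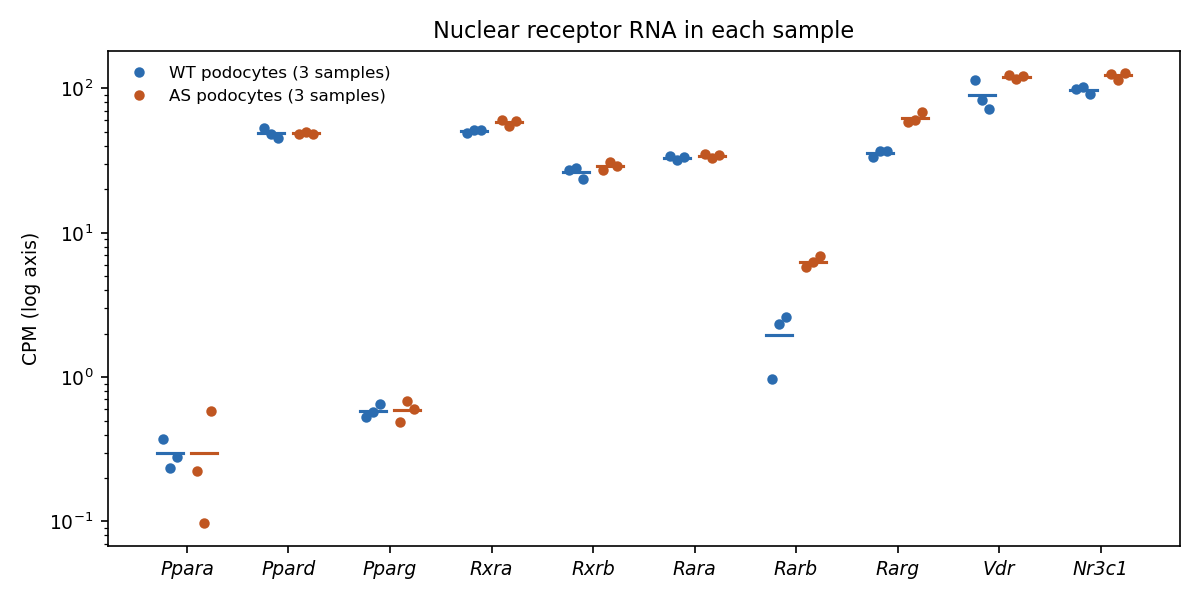
Expression of the 10 receptor genes in CPM on a log axis, with a point for each WT and AS sample and a bar for each mean. Rarb rose from a mean of 1.97 to 6.32 CPM and Rarg from 35.9 to 62.8 CPM, whereas the points of Ppara, Ppard and Pparg overlap.

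Levels of the receptors were compared per kilobase of exon, as CPM per kb. In WT podocytes Vdr was highest at 15.9 ± 3.90, followed by Nr3c1 at 12.7 ± 0.667, and the samples of these receptors overlapped. Rxra (9.29 ± 0.209), Rarg (8.41 ± 0.505), Rara (7.58 ± 0.241), Rxrb (6.63 ± 0.613) and Ppard (6.50 ± 0.511) followed, of which Rxrb and Ppard overlapped. Rarb (0.373 ± 0.166), Pparg (0.199 ± 0.0201) and Ppara (0.0775 ± 0.0185) were far lower, with Rarb and Pparg overlapping. In AS podocytes Vdr (21.4 ± 0.843) and Nr3c1 (16.0 ± 0.883) led again, and Rarg at 14.7 ± 1.28 stood above Rxra at 10.6 ± 0.510, with samples of Nr3c1 and Rarg overlapping. Rara (7.83 ± 0.223) and Rxrb (7.33 ± 0.488), which overlapped, and then Ppard (6.52 ± 0.113), Rarb (1.20 ± 0.104), Pparg (0.200 ± 0.0327) and Ppara (0.0783 ± 0.0655) came next, without overlap between neighbours. With the length of the longest transcript in place of all exons, 7 of the 10 receptors kept their place in WT and 5 in AS. Ppard, at 13.1 ± 1.03 in WT and 13.2 ± 0.227 in AS, then stood above Rxra, and in AS Rarg stood above Nr3c1.

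**Figure D2:**
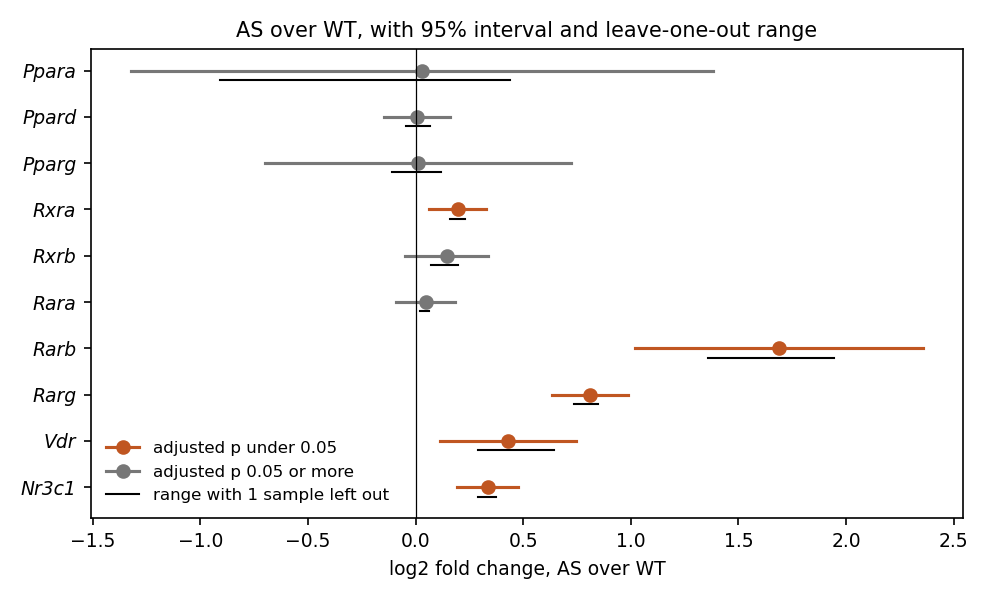
Log2 fold change of AS over WT for each receptor (edgeR), with its 95% confidence interval as the line through the point and the range over omission of each sample as the black line beside it. The points of Rarb (interval 1.02 to 2.36) and Rarg (0.63 to 0.98) lie farthest to the right. The intervals of the PPAR genes, Rara and Rxrb cross 0.

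PPARs sense fatty acids and their derivatives, Ppara and Ppard mainly driving fatty acid oxidation and Pparg lipid storage. Ppard (ENSMUSG00000002250.17) was the most highly expressed PPAR, with 52.9, 48.2 and 45.3 CPM in WT and 48.5, 50.0 and 48.6 CPM in AS. The AS samples lay inside the WT range, and the log2 fold change was 0.0061 with a 95% confidence interval of -0.15 to 0.16 (adjusted p = 0.954, edgeR), that is, a ratio between 0.903 and 1.12. Ppard held 95.9% of the summed PPAR level per kb in both genotypes.

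Pparg (ENSMUSG00000000440.13) was at 0.533, 0.577 and 0.650 CPM in WT and 0.488, 0.681 and 0.600 CPM in AS, or 22 to 35 counts per sample. The AS samples lay on both sides of the WT samples, and the interval of the ratio, 0.616 to 1.65, was wide (adjusted p = 0.981, edgeR). Of 8 adipocyte markers, Cidec, Lep and Cfd had no count in any sample, Fabp4 had 9 counts in WT and 9 in AS, Adipoq 7 in WT and 0 in AS, Plin1 3 in WT and 0 in AS, and Retn 43 in WT and 44 in AS, the remaining one being the widely expressed Adipor2. Ppara (ENSMUSG00000022383.14) was lower still, at 0.375, 0.235 and 0.282 CPM in WT and 0.222, 0.0973 and 0.581 CPM in AS, or 5 to 32 counts. AS sample 3 was the highest and AS sample 2 the lowest of all, and the interval of the ratio was 0.399 to 2.61 (adjusted p = 0.976, edgeR).

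Of 37 textbook PPAR targets, 26 were tested and 13 were called (50%), 6 higher and 7 lower in AS, with a median log2 fold change of -0.01 against 0.0061 over all genes. Over all genes 20.4% were higher and 19.6% lower, and 13 of the 26 targets did not pass the test. Cpt1a, which lets long-chain fatty acids into mitochondria, rose from 105, 109 and 95.9 CPM in WT to 207, 176 and 179 CPM in AS (log2 fold change 0.86, adjusted p = 3.27e-05, edgeR). Scd1, a fatty acid desaturase, and Cat, catalase, also rose, by log2 fold changes of 0.60 and 0.34. Ucp2, an inner mitochondrial membrane carrier, was at 113, 100 and 111 CPM in WT and 27.4, 19.9 and 24.0 CPM in AS, a log2 fold change of -2.18 (adjusted p = 6.40e-07, edgeR). The peroxisomal oxidation enzyme Acaa1a fell by 0.99 and malic enzyme Me1 by 0.48 on the log2 scale. Plin2, a lipid droplet coat protein, fell from 394 ± 28.5 to 284 ± 19.6 CPM (log2 fold change -0.47, adjusted p = 0.000997, edgeR). Angptl4 and Pdk4, which respond to PPAR agonists in many tissues, did not pass the test: Angptl4 was at 11.6 ± 2.77 CPM in WT and 14.5 ± 1.45 CPM in AS (adjusted p = 0.147, edgeR), and Pdk4 at 37.4 ± 12.4 and 39.3 ± 2.98 CPM (adjusted p = 0.812, edgeR), with WT sample 1 lowest at 23.1 CPM.

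Rxra and Rxrb encode the shared dimer partners. Rxra (ENSMUSG00000015846.17) was at 49.5, 51.6 and 51.2 CPM in WT and 60.2, 54.9 and 59.2 CPM in AS. All AS samples were higher, by a small amount (log2 fold change 0.19, SE 0.06, a 1.14-fold difference, adjusted p = 0.0259, edgeR). The call was lost without AS sample 1 (adjusted p = 0.107), AS sample 3 (0.0876), WT sample 2 (0.0558) or WT sample 3 (0.0619), with log2 fold changes between 0.16 and 0.23 over all 6 omissions. Rxrb (ENSMUSG00000039656.18), at 27.2, 28.2 and 23.6 CPM in WT and 27.2, 31.1 and 29.1 CPM in AS, overlapped between genotypes and was not called (log2 fold change 0.14, 95% interval -0.05 to 0.34, adjusted p = 0.214, edgeR). Rxrg, the remaining gene of the family and not among the 10, had no count in any sample, so that its level was at most 0.0209 CPM in WT and at most 0.0198 CPM in AS (3 counts over a group). Per kb, the summed Rxra and Rxrb level was 15.9 ± 0.621 CPM in WT and 18.0 ± 0.172 CPM in AS.

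The retinoic acid receptors Rarb and Rarg had the largest log2 fold changes of the 10, and Rara did not pass the test. Rarb (ENSMUSG00000017491.10), itself a classical retinoic acid target, was the weakest of the family, at 0.966, 2.33 and 2.60 CPM in WT and 5.82, 6.23 and 6.90 CPM in AS. WT sample 1 was the lowest and every AS sample was above every WT sample, giving a 3.23-fold difference (95% interval 2.03 to 5.13, log2 fold change 1.69, SE 0.30, adjusted p = 0.00172, edgeR). Without WT sample 1 the log2 fold change was 1.36 (adjusted p = 9.5e-05). The gene was read from 49, 109 and 120 counts in WT and 262, 320 and 380 counts in AS.

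In the GENCODE M21 annotation, 1793 of the 5265 exonic bases of Rarb (34.1%) also lie in exons of Top2b on the opposite strand, and whether counting used strand is not given in the sources used here. Top2b, a DNA topoisomerase, was at 187 ± 12.5 CPM in WT and 182 ± 2.48 CPM in AS (log2 fold change -0.04, adjusted p = 0.650, edgeR). Without strand, reads in the shared stretch cannot be told apart. The antisense gene Gm48162, which shares 227 bases, had 2 counts in WT and 6 in AS.

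The promoter of Rarb is printed because, of the 9 receptors with a sequence in the RefSeq table (GRCm38.p6), only Rarb matched any of the sites searched. The windows searched held the 250 bases upstream of the start and a shorter stretch past it. Those were direct repeats of a receptor core motif (AGGTCA or its variants AGTTCA and GGGTCA and GGTTCA) spaced by 1 to 5 bases, on both strands, and the glucocorticoid element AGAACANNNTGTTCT. The upstream part of the Rarb window, chr14:16575477-16575726 on the minus strand, held a repeat with 5 bases between core motifs. Retinoic acid receptor dimers are known to prefer this spacing. The repeat lay 53 to 37 bases before the start. Such a repeat was found in 32 of 32851 promoter windows (0.0974%). The retinoic acid-degrading enzyme gene Cyp26a1 held one as well, in the opposite orientation, 32 to 16 bases before its start (chr19:37697558-37697807, plus strand). The upstream part of both windows is written 5′ to 3′ in the direction of the gene, with the repeat in capitals. A match describes the letters and not the use of a site.
Rarb: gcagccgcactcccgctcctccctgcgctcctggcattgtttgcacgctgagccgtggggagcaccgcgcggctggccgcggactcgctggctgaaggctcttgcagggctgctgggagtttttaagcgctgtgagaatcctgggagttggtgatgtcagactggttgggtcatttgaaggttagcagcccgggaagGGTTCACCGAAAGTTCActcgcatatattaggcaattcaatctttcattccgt
Cyp26a1: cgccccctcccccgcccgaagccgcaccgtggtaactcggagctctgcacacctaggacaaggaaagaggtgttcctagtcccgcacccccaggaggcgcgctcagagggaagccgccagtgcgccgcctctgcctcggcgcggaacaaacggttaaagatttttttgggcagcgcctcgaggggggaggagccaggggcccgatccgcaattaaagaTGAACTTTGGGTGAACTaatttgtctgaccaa

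The only other matches among 168 pathway genes with a promoter sequence were a repeat spaced by 1 base in Bco1, a carotene-cleaving enzyme, and a glucocorticoid element in Sgk1, a kinase gene that glucocorticoids induce. The shares of windows with a repeat spaced by 1, 2, 3 and 4 bases were 0.222%, 0.268%, 0.0396% and 0.0822%, and 0.00913% held the glucocorticoid element. Cyp26a1 itself was not tested, with only 12 counts in all of WT and 5 in all of AS.

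Rarg (ENSMUSG00000001288.16), an abundant retinoic acid receptor, was at 33.4, 37.1 and 37.1 CPM in WT and 58.7, 60.8 and 69.0 CPM in AS. The groups were well apart, with a log2 fold change of 0.81 (SE 0.08, 1.75-fold, adjusted p = 4.72e-05, edgeR), the smallest adjusted p of the 10 receptors. Rarg lies on chromosome 15, where the median log2 fold change of 431 genes was 0.20, and its value relative to that median was 0.60. Rara (ENSMUSG00000037992.17), the other abundant one, was at 33.8, 31.9 and 33.5 CPM in WT and 35.0, 33.1 and 34.3 CPM in AS. Its groups overlapped and it was not called, with an interval of the ratio from 0.938 to 1.14 (adjusted p = 0.593, edgeR).

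The makeup of the family was described from the same levels. Per kb, Rara held 46.3 ± 2.50% of the summed retinoic acid receptor level in WT and 33.0 ± 2.02% in AS, Rarg 51.4 ± 1.63% and 62.0 ± 1.84%, and Rarb 2.26 ± 0.956% and 5.04 ± 0.191%. The ratio of Rarg to Rara in CPM was 0.987, 1.16 and 1.11 in WT and 1.68, 1.83 and 2.01 in AS. The summed level was 16.4 ± 0.562 CPM per kb in WT and 23.8 ± 1.38 CPM per kb in AS, and the ratio of the retinoid X to the retinoic acid receptors was 0.974 ± 0.0578 and 0.757 ± 0.0357. None of these quantities overlapped between genotypes, each with p = 0.1 in the exact two-sided permutation test, the smallest that 3 against 3 samples can give. Among single genes tested, 52.3% did not overlap either.

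**Figure D3:**
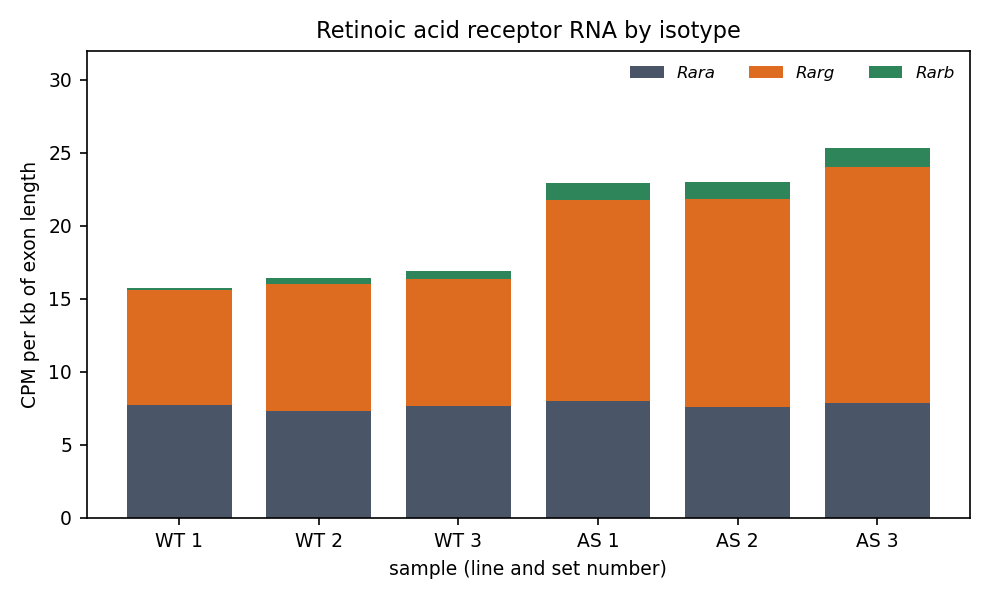
Level in CPM per kb of exon of Rara, Rarg and Rarb, stacked in 1 bar for each of the 3 WT and 3 AS samples, so that the height is the summed level. The mean height is 16.4 in WT and 23.8 in AS, and the Rarg segment is 51.4% of it in WT and 62.0% in AS, while the Rara segments are of similar height.

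Genes that bring retinoids in, bind them, make retinoic acid or break it down were tested as well. Of 25 such genes, 16 were tested and 10 were called (62.5%, against 40.1% over all genes tested), 6 higher and 4 lower in AS. The median log2 fold change was 0.25. Dhrs3, which reduces retinal back to retinol, was at 136 ± 5.71 CPM in WT and 64.3 ± 3.93 CPM in AS (log2 fold change -1.09, adjusted p = 1.65e-06, edgeR). Aldh1a2, which makes retinoic acid from retinal, fell from 301, 258 and 280 to 188, 183 and 175 CPM (log2 fold change -0.62, adjusted p = 1.00e-04, edgeR). Cyp26b1, which degrades retinoic acid, moved the other way, from 367, 247 and 226 CPM to 618, 553 and 511 CPM (log2 fold change 1.00, adjusted p = 0.00110, edgeR). The ratio of Aldh1a2 to Cyp26b1 was therefore 1.04 ± 0.211 in WT and 0.326 ± 0.0201 in AS. Its groups did not overlap, as for 52.3% of single genes tested (exact permutation p = 0.1). This ratio leaves out the related enzyme genes Aldh1a1 and Aldh1a3, which did not fall. Aldh1a1, more abundant in CPM, overlapped between genotypes (514 ± 155 CPM in WT, 713 ± 111 CPM in AS, log2 fold change 0.47, adjusted p = 0.0962, edgeR). Aldh1a3 was low and rose from 0.255 ± 0.136 to 0.744 ± 0.180 CPM (log2 fold change 1.55, adjusted p = 0.0224, edgeR).

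**Figure D4:**
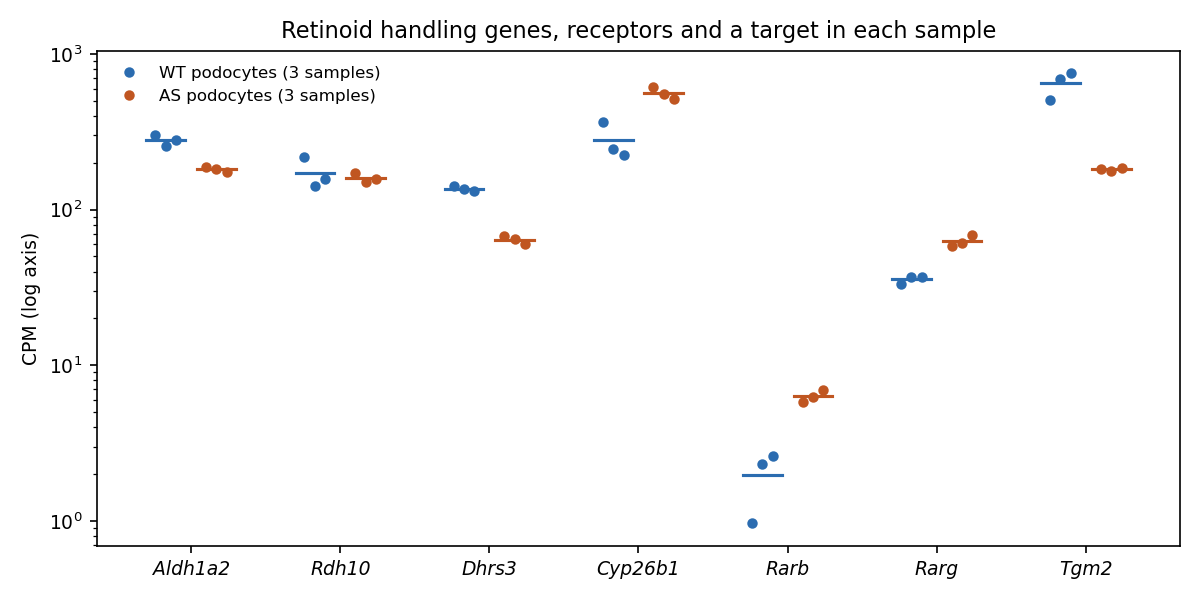
CPM on a log axis of retinoid handling genes, the receptors Rarb and Rarg and the target Tgm2, with a point for each WT and AS sample and a bar for each mean. Dhrs3, Aldh1a2 and Tgm2 lie lower in AS and Cyp26b1, Rarb and Rarg higher, without overlap, while the points of the retinal-forming enzyme Rdh10 overlap (172 and 159 CPM on average).

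The retinoic acid targets were split in direction. Of 24, 19 were tested and 13 were called (68.4%, against 40.1% over all genes tested), 6 higher and 7 lower. The median log2 fold change was -0.11. This list holds Dhrs3 and Cyp26b1 again. Tgm2, a transglutaminase that is also on the glucocorticoid target list, was at 505, 687 and 753 CPM in WT and 182, 177 and 186 CPM in AS (log2 fold change -1.83, adjusted p = 6.35e-06, edgeR).

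Vdr (ENSMUSG00000022479.16) had the highest level per kb of the 10. It was at 114, 82.7 and 71.8 CPM in WT and 124, 115 and 122 CPM in AS. WT sample 1 lay just under the lowest AS sample, and the spread among WT samples (89.6 ± 22.0 CPM) was far wider than among AS samples (121 ± 4.76 CPM). The log2 fold change was 0.43 (SE 0.14, 1.35-fold, adjusted p = 0.0351, edgeR). The call was lost on leaving out any of AS sample 1 (adjusted p = 0.0973), AS sample 2 (0.0650), AS sample 3 (0.0987), WT sample 2 (0.112) or WT sample 3 (0.101), where the log2 fold change was 0.29 to 0.46. Only without WT sample 1, the highest WT sample, was the call kept, with a log2 fold change of 0.64 (adjusted p = 4.0e-05, edgeR). Vdr also lies on chromosome 15 and was 0.23 above that chromosome's median.

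Genes of vitamin D metabolism and uptake were looked at next. Of 11, 7 were tested and 2 were called (28.6%, against 40.1% over all genes tested), 1 in each direction. Cyp27b1, which makes active vitamin D, was at 7.34, 1.24 and 2.60 CPM in WT and 0.777, 0.409 and 0.600 CPM in AS, with WT sample 1 again highest (log2 fold change -2.66, adjusted p = 0.00632, edgeR). Dab2, an endocytic adaptor, rose from 179, 218 and 205 CPM to 283, 283 and 271 CPM (log2 fold change 0.47, adjusted p = 0.000957, edgeR). Cyp24a1, the enzyme that inactivates vitamin D and the most sensitive known target of its receptor, was near the detection limit, with 4 counts in WT and 3 in AS.

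Of 20 vitamin D targets, 7 were tested and 4 were called (57.1%, against 40.1% over all genes tested), 1 higher and 3 lower. The median log2 fold change, -0.85, was the value of Bglap2, which was not called (46 counts in WT and 27 in AS, adjusted p = 0.272, edgeR). The genes that fell included Spp1, osteopontin, from 1693, 851 and 972 CPM to 242, 183 and 224 CPM (log2 fold change -2.44, adjusted p = 4.90e-05, edgeR). Igfbp3, an IGF binding protein, had 255 counts in WT and 2 in AS, a ratio of 0.00744 (exact 95% interval 0.000896 to 0.0271, counting error only). The podocyte marker Nphs1, with 67 counts in WT and 6 in AS, was the remaining gene that fell. Lrp5, a Wnt co-receptor, was the gene that rose (log2 fold change 0.72, adjusted p = 0.000437, edgeR).

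Nr3c1 (ENSMUSG00000024431.16) was at 99.0, 102 and 91.9 CPM in WT and 127, 115 and 127 CPM in AS. All AS samples were higher, with a log2 fold change of 0.33 (SE 0.06, 1.26-fold, adjusted p = 0.00242, edgeR). The mineralocorticoid receptor Nr3c2, its nearest relative, was also higher, at 13.4 ± 2.07 CPM in WT and 19.0 ± 1.31 CPM in AS (log2 fold change 0.51, adjusted p = 0.00786, edgeR). The ratio of Nr3c1 to Nr3c2 was 7.38 ± 0.868 in WT and 6.48 ± 0.533 in AS and overlapped (exact permutation p = 0.2).

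Of 16 chaperones of the receptor and genes of glucocorticoid metabolism, all tested, 4 were called (25%), 2 in each direction. Over all genes tested, 40.1% were called. This list also holds Nr3c2, which is 1 of the 4. H6pd, which supplies the cofactor for cortisone reduction in the endoplasmic reticulum, fell from 343, 289 and 330 CPM to 159, 144 and 154 CPM (log2 fold change -1.08, adjusted p = 6.60e-06, edgeR). Hsd11b1, the reductase that uses this cofactor, had only 34 counts in WT and 30 in AS (adjusted p = 0.756, edgeR). Ptges3, the p23 co-chaperone, rose by a log2 fold change of 0.32, and Abcb1a, a pump that exports steroids, was low and fell by 1.58 on the log2 scale.

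Of 32 glucocorticoid targets, 28 were tested and 12 were called (42.9%, against 40.1% over all genes tested), 7 higher and 5 lower, with a median log2 fold change of -0.09. Among them Tsc22d3, the glucocorticoid-induced leucine zipper, rose from 29.7, 36.3 and 34.2 CPM to 48.3, 55.3 and 54.9 CPM (log2 fold change 0.66, adjusted p = 0.000339, edgeR). Ddit4, an inhibitor of mTOR signalling, rose by 0.69 on the same scale. Thbd, thrombomodulin, had the largest difference, from 0.888, 0.577 and 0.585 CPM to 78.5, 90.6 and 83.6 CPM (log2 fold change 6.93, adjusted p = 4.00e-09, edgeR). Fst, follistatin, fell from 1683 ± 82.1 to 938 ± 37.1 CPM. Fkbp5, a target widely used as a readout of receptor activity, was at 3.80 ± 0.589 CPM in WT and 3.35 ± 0.618 CPM in AS and did not pass the test (adjusted p = 0.495, edgeR). Per1, a clock gene that glucocorticoids induce, did not either (adjusted p = 0.622, edgeR), with WT sample 1 highest at 53.7 CPM and the other WT samples at 23.8 and 23.1 CPM.

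**Figure D5:**
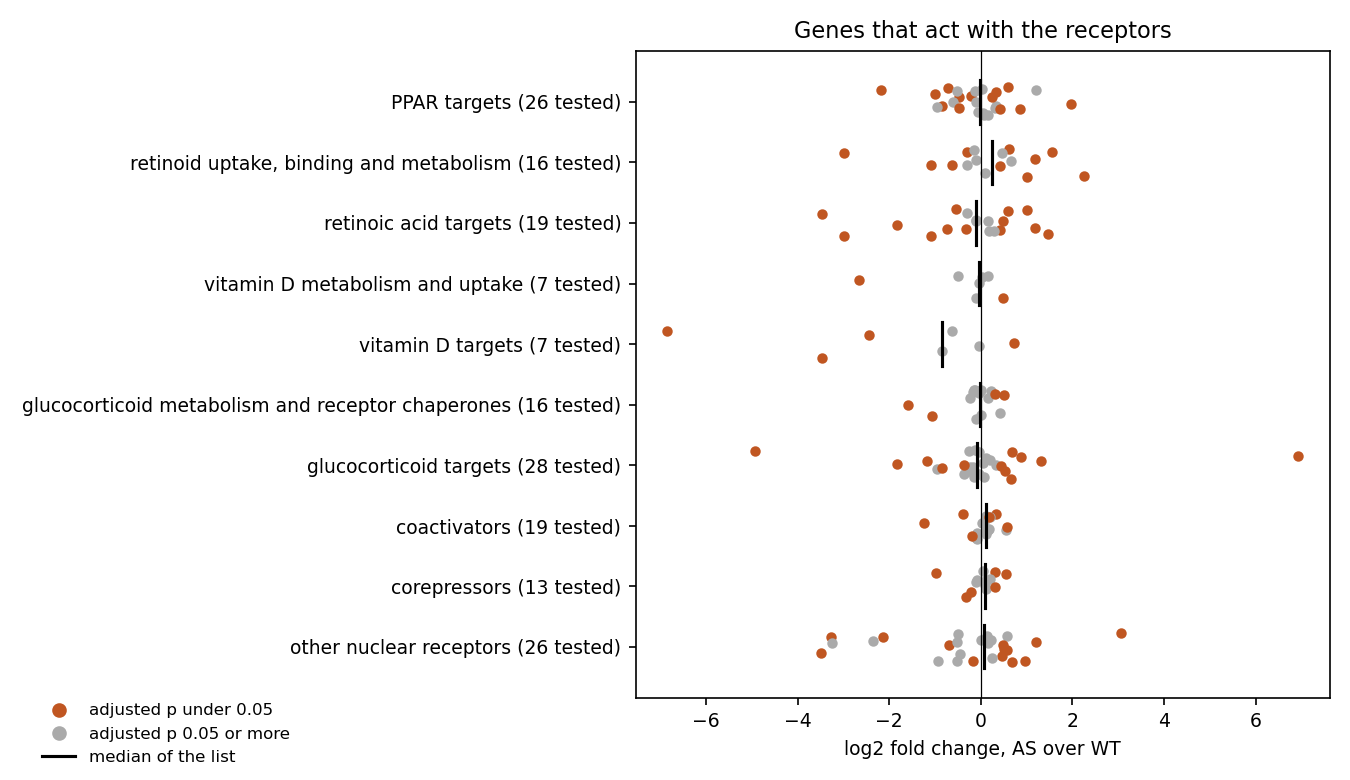
Log2 fold change (AS over WT) of the tested genes of each list of genes that act with the receptors, 1 point per gene, with called genes in orange and the list's median as a black bar. Every list has called genes on both sides of 0. The medians lie between -0.85 for vitamin D targets (7 tested genes) and 0.25 for retinoid uptake, binding and metabolism (16 tested genes).

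Coregulators carry the enzymes that receptors bring to DNA. Of 20 coactivators, 19 were tested and 6 were called (31.6%), and of 14 corepressors, 13 were tested and 6 were called (46.2%), each with 3 higher and 3 lower. The share called over all genes tested was 40.1%. Smarca2, a chromatin remodelling ATPase, rose by a log2 fold change of 0.58 and Sirt1, a deacetylase, by 0.54. Hr, a corepressor of the vitamin D and thyroid hormone receptors, fell by 0.98 and Nrip1, which represses ligand-bound receptors, by 0.33.

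The other nuclear receptors gave a setting for the 10. Of 39, 26 were tested and 13 were called (50%, against 40.1% over all genes tested), the same share as among the 10. Of these 13, 8 were higher and 5 lower, where the 10 had none lower. No test of this difference was made. The farnesoid X receptor Nr1h4, which senses bile acids, fell from 4.83, 6.35 and 6.33 CPM to 0.799, 0.389 and 0.618 CPM (log2 fold change -3.28, adjusted p = 1.22e-05, edgeR). Thra, a thyroid hormone receptor, was at 23.1 ± 3.75 CPM in WT and 52.9 ± 2.01 CPM in AS, and the orphan receptor Rorb at 0.737 ± 0.227 and 6.21 ± 2.23 CPM, with log2 fold changes of 1.20 and 3.06.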

How the data were processed

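RNA-seq of 3 WT and 3 AS samples was analysed. The deposited values are raw read counts for each gene, not normalized by the authors. The submitters' processing notes name FastQC, Trim Galore, STAR, edgeR and mm39, whereas the sources used here give no counting tool, strand setting or annotation release. GENCODE M21 (GRCm38) gave names, chromosomes and exon lengths (51880 identifiers matched), so lengths may differ from those counted and the only coordinates given are those of the RefSeq promoter windows, on GRCm38.p6. Genes without a symbol held 0.363% of counts.

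In R 4.3.3, low genes were removed with filterByExpr (at least 10 counts, 15 in total), TMM factors were applied, and the quasi-likelihood test of edgeR 4.0.16 was run on genotype alone. SE is the log2 difference over the root of the F statistic. At an unadjusted p under 0.05, 7856 genes passed. Totals of 45417221 to 54290968 counts per sample bear on the precision. Intervals of fold changes come from the fit and hold the spread between samples, whereas exact intervals of count ratios and detection limits (3 counts) cover counting error only. Alternatives were DESeq2 1.42.0, limma-voom (limma 3.58.1), other scalings and filters, a replicate block and leaving out each sample. The fits were also run on simulated counts, with far fewer genes changed than were called here, so that run cannot vouch for these results. The receptors and gene lists were chosen with earlier results of these data known. Besides the 10 receptors, Col4a3 and the markers, the genes named were up to 4 called genes per list with the smallest adjusted p and textbook genes whatever their result. Scd1, Cat, Aldh1a1, Aldh1a3, Bco1, Sgk1 and the genes overlapping Rarb were added after their values were seen. Some genes that this rule names are not reported here.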

Additional observations from a re-analysis of the deposited data

How the results depend on the processing

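The same 5 receptors were called under DESeq2, limma-voom, the other scalings and filters and the replicate block (with a mean CPM of at least 1, Ppara and Pparg were not tested). With each sample left out in turn, 3 to 5 receptors were called, and Rxra gave log2 fold changes of 0.16 to 0.23 and Vdr of 0.29 to 0.64. Genes that did not pass the test changed sign: Ppara under limma-voom (-0.29), the replicate block (-0.18) and omissions (-0.91 to 0.44), Ppard with DESeq2 size factors (-0.0028), DESeq2 (-0.0029), a mean CPM of at least 1 (-0.00069) and omissions (-0.046 to 0.068), and Pparg under omissions (-0.11 to 0.12). Pdk4 (-0.18 to 0.24), Per1 (-0.42 to 0.31) and Hsd11b1 (-0.67 to 0.10) also changed sign under omissions. Relative to the chromosome median, Pparg was at 0.21, Rarg at 0.60 and Nr3c1 at 0.44. With the longest transcript, 5 of 10 receptors kept their place in the AS order. The cause was not tested.

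Over all genes, 6517 were called, 7066 with the replicate block and 5120 to 6776 with a sample left out. Each sample's deviations from its genotype's mean log2 CPM were compared between genotypes. They correlated at 0.147, 0.0939 and 0.0526 between same-numbered samples. The other pairs of a WT and an AS sample gave -0.130 to 0.0571, the highest being WT sample 3 with AS sample 2. Whether the numbers pair the samples cannot be told from these values. The main fit left the numbers out, and the replicate block took them in. Of 542 values for 42 other named genes, 529 kept direction and side of the threshold, 8 lost the call, 2 gained it and 3 changed sign. Ppara and Pparg were read from 5 to 35 counts per sample, and their intervals were the widest of the 10 receptors.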
